A study of Mus musculus with 9 samples.

Results

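The comparison described here set 3 arrays of NIH3T3-derived mouse fibroblasts, given a dimerizer of an MLKL fusion protein and then kept through 6 h of washout, against 3 arrays of control cells of the same line. These are 6 of the 9 arrays measured, chosen by their treatment labels, and the other 3 hold cells taken before the washout. All cells belonged to the line named hMLKL1-181-2Fv-NIH3T3, which holds a piece of human MLKL joined to Fv domains, and the labels do not say whether it is a single clone. The washout group was given B/B, a compound that brings Fv domains together, at 50 nM for 1 h, was sorted for annexin V-positive cells, and then went through washout for 6 h, for which the series design gives 3000 nM of a compound it does not name. The group taken before the washout, called B/B 1 h below, had the same B/B treatment and sort and no washout. Control samples are labelled only as control treatment. Whether controls went through a sorter, and when they were collected, is missing from the labels, so that B/B, the sort, the time since plating and the washout cannot be told apart in this comparison. Nor is it stated that samples of 1 group came from separate cultures, and the p-values then measure only the spread between these samples, which may be technical.

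MLKL is the pseudokinase that executes necroptosis: once it oligomerises through its amino-terminal part it goes to the plasma membrane and breaks its barrier. Phosphatidylserine appears on the outer leaflet before the membrane ruptures, which is what annexin V binds, and cells at that stage can be rescued when the stimulus is withdrawn. The ESCRT-III complex, which severs membrane necks, sheds the damaged patches of membrane and so delays death. NIH3T3 cells are fibroblasts that make collagen, adhere through integrins and divide in serum.

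Levels are the deposited log2 values of 1 probe set per gene, the brightest over the 9 arrays where a gene had several, and the base of 2 was inferred from the range of the values. A difference is the washout mean minus the control mean on that scale, and a fold is 2 raised to it. A gene was called where limma's Benjamini-Hochberg adjusted p over all 22180 genes was under 0.05. "Rose" and "fell" are used only of called genes. The medians of the 9 arrays lay between 4.60 and 4.68. In bulk RNA, fewer cells of a kind and less RNA per cell cannot be told apart. The 17 measured fibroblast markers had a mean level of 9.36 to 9.37 on control arrays and 9.0 to 9.04 on washout arrays. Markers of leukocytes (19 measured), epithelium (12), endothelium (12) and adipocytes (8) had mean levels of at most 4.69 on any control or washout array. Levels of different probe sets are not comparable, so these values serve only to set the groups side by side. The 11 muscle markers, some of which fibroblasts express, lay at 6.97 to 7.06 in control and 6.76 to 6.88 after washout, with 1 called higher and 3 lower.

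After the washout, 5814 of 22180 genes differed from control, 26.2% of those tested, 3208 higher (14.5%) and 2606 lower (11.7%). Most differences were small. Of the called genes 81.7% changed less than 1.5-fold, and the median size was 0.36 (log2) among genes called higher and 0.33 among those called lower. At least 2-fold changes numbered 132 higher and 94 lower, or 0.595% and 0.424% of the genes tested. Of these, 13 were at least 4-fold higher and 6 at least 4-fold lower, and 3 were at least 8-fold higher with 0 lower. The 3 washout arrays lay wholly above the 3 control arrays in 20.2% of genes and wholly below in 17.8%, together 38%. Calls were made mainly in well-expressed genes: with genes split by level into 10 equal groups, 1.9% of the dimmest group were called and 60.1% of the second brightest. Among the 15526 genes above the lowest 30% by level, 20.1% were called higher and 16.2% lower. A list of bright genes is therefore likely to hold more calls than the 26.2% of all genes. The median difference over all genes was 0.00. For scale, B/B 1 h differed from the same control arrays in 642 genes, 2.89%, and washout differed from B/B 1 h in 6345, 28.6%.

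**Figure D1:**
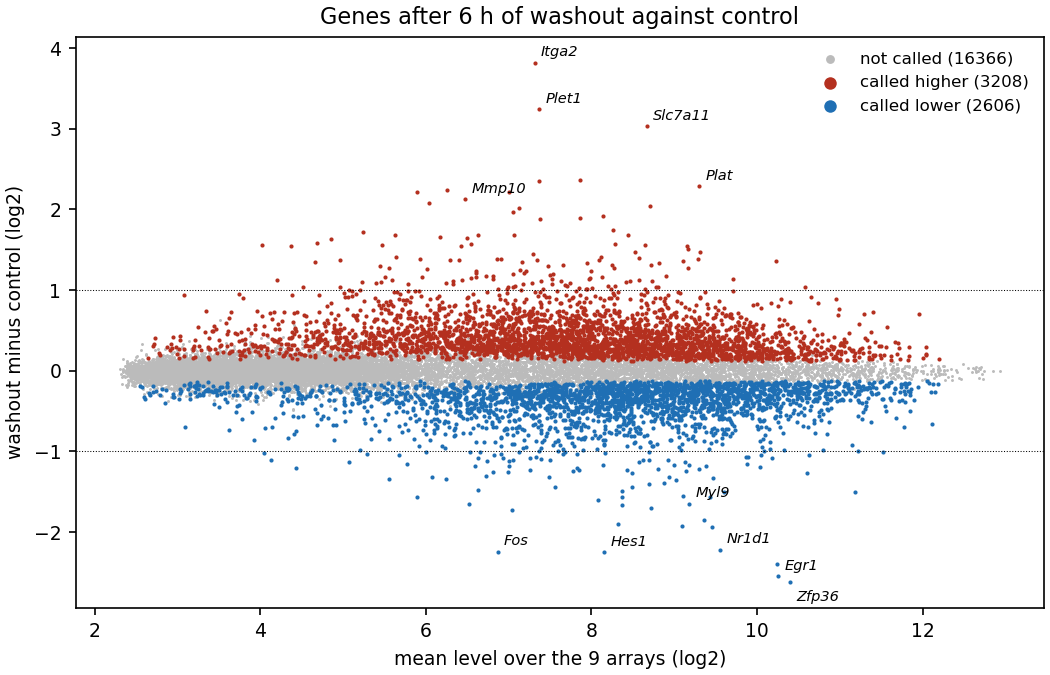
Each point is 1 of 22180 genes. The horizontal axis is its mean log2 level over the 9 arrays and the vertical axis its washout mean minus its control mean (log2). Red and blue points were called higher (3208) and lower (2606) by limma, grey points were not called, and dotted lines mark 2-fold. Itga2, at 3.82, and Plet1, at 3.24, stand highest, and Zfp36, at -2.62, and Egr1, at -2.55, lowest.

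Integrin genes changed in both directions. Itga2, which encodes the integrin alpha 2 subunit of a collagen receptor, had levels of 6.05, 6.06 and 6.17 on the control arrays and 9.92, 9.88 and 9.94 on the washout arrays. It rose 14.1-fold, by 3.82 ± 0.07 (log2, SE; limma adjusted p = 4.78e-09), the largest rise among all genes. At 1 h it stood at 5.92, 5.80 and 6.09, within or below the control range. Itgb3, the integrin beta 3 subunit that pairs with alpha V to bind vitronectin, went from 7.65, 7.74 and 7.66 to 9.40, 9.40 and 9.5, a 3.36-fold rise. Both genes had washout arrays clear of every control and B/B 1 h array. Of 20 measured integrin genes, 5 rose and 4 fell (median -0.01). The lower ones included Itgb5, the other vitronectin-binding beta subunit named here, at 9.52, 9.60 and 9.58 in control and 9.0, 9.01 and 9.04 after washout, a fall of 0.55 ± 0.045 (SE).

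Of 38 measured adhesion and surface genes known for their expression in epithelium or blood cells, 14 rose and 6 fell (median 0.14). This list, like the others, was chosen with earlier results of these data known, so its share of rises is a description only. Plet1, which encodes a surface protein of placental and epithelial progenitors, stood at 5.96, 6.00 and 6.04 in control, 6.93, 6.74 and 6.90 at 1 h and 9.33, 9.15 and 9.26 after washout. It rose 9.48-fold over control, and its 3 groups did not overlap. Ceacam1, an adhesion molecule of the carcinoembryonic antigen family, rose 5.15-fold, from 7.19, 7.01 and 7.17 to 9.45, 9.57 and 9.45. Trem3, a myeloid receptor gene, rose by 2.25 and Plek, which encodes the platelet protein pleckstrin, by 2.21. Slpi, a secreted inhibitor of leukocyte proteases, rose by 1.47. Selp, the P-selectin gene, rose by 1.68. Whether cells of other kinds had a part in these rises was not tested. Of 19 measured leukocyte markers 7 lay in the lowest 30% of genes by level and 4 above the median gene. Their mean level was 4.65 to 4.69 in control and 4.64 to 4.66 after washout. At 1 h 3 had been called higher and 0 lower, and after washout 1 was called higher and 3 lower. The 1 higher was Cd14, the lipopolysaccharide co-receptor, at 7.85, 7.73 and 7.90 in control, 8.34, 8.45 and 8.52 at 1 h and 9.27, 9.32 and 9.31 after washout. Of the 3 called lower, Lyz2 and Ptprc each lost the call under at least 1 alternative analysis. The epithelial list had 0 called higher and 1 lower of 12 measured, Cdh1, E-cadherin, whose call was lost under 7 alternative analyses.

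**Figure D2:**
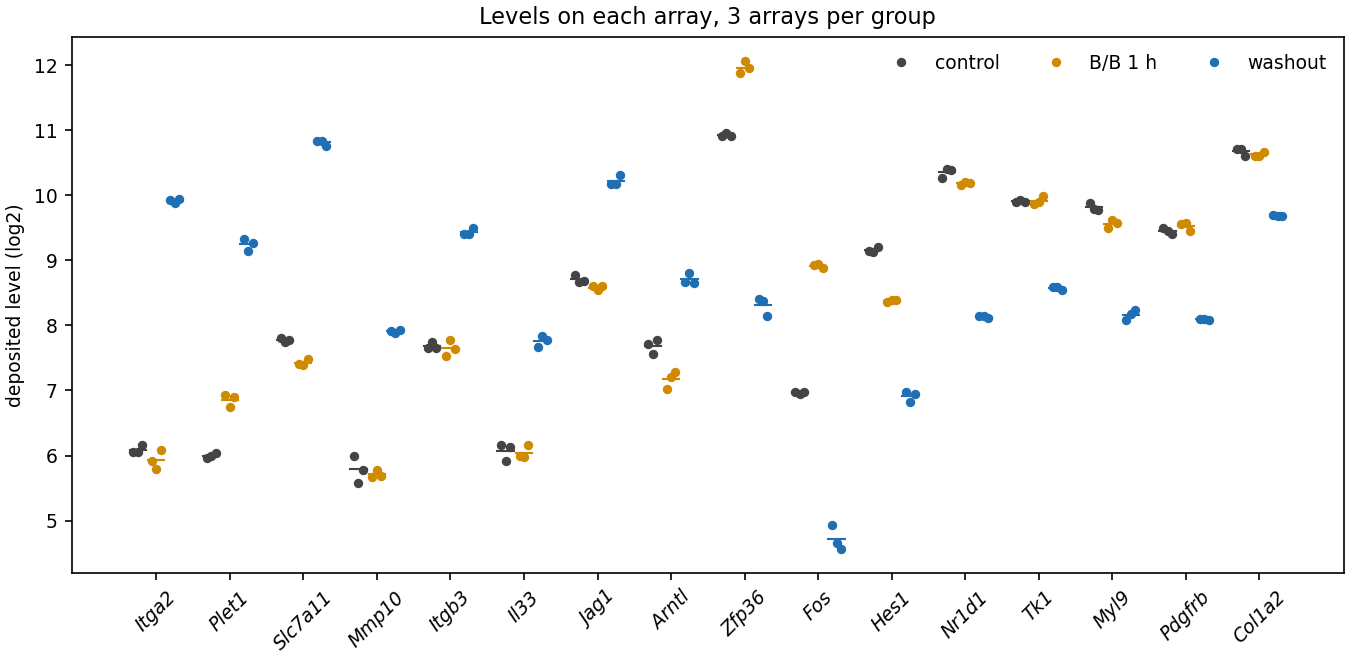
Deposited log2 level on each of the 9 arrays for 16 genes; points are arrays, bars are means of 3 arrays, and colours mark control, B/B 1 h and washout. The 8 genes on the left (Itga2 to Arntl) are higher after washout than in control and the 8 on the right (Zfp36 to Col1a2) lower. Washout and control arrays overlap in none of the 16, some of which were drawn by a rule that requires this. Over all genes tested 38% had no overlap. Levels of different genes come from different probe sets and are not to be compared.

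Other genes among the 25 highest have varied roles. Bpifc, a gene of the lipid-binding BPI family, went from 6.59, 6.69 and 6.74 to 9.0, 9.02 and 9.04, a 5.09-fold rise. St6gal1, which adds sialic acid to glycoproteins, rose 4.23-fold, and Rin2, an activator of the endocytic GTPase Rab5, 4.12-fold. Fzd3, a Wnt receptor gene, rose 3.69-fold, Gfpt2, of the hexosamine pathway, 3.20-fold and Havcr2, the TIM-3 receptor gene, 3.13-fold. The solute carrier genes Slc22a23 and Slc22a4 rose by 1.92 and 1.66, and Cyp2j12, a cytochrome P450 gene, by 1.72. At the lower end, Gask1b fell 3.60-fold, from 10.07, 10.03 and 9.88 to 8.12, 8.19 and 8.13, and Slc1a3, a glutamate transporter gene, 3.30-fold. Vgll3, a cofactor of TEAD factors, fell 2.96-fold and Cd248, endosialin of stromal cells, 2.95-fold. Cpa6, a carboxypeptidase gene, fell by 1.57, Actg2, smooth muscle gamma actin, by 1.49, Ogn, the matrix proteoglycan osteoglycin, by 1.48 and Ak5, an adenylate kinase gene, by 1.44. These genes were drawn only from called genes whose washout and control arrays did not overlap, so the lack of overlap is no further result. Over all genes tested 38% had no overlap.

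Slc7a11, which encodes the cystine-glutamate antiporter that feeds glutathione synthesis, rose 8.19-fold. Its control values of 7.81, 7.74 and 7.77 fell to 7.40, 7.39 and 7.48 at 1 h, and washout arrays stood at 10.84, 10.84 and 10.75. The rise was 3.03 with the brightest probe set and 1.89 with the gene's probe sets averaged. Among 36 measured NRF2 targets and glutathione genes, 14 rose and 7 fell (median 0.04). Those that rose included Abcc4, an exporter of organic anions, by 1.30. Hmox1, which encodes the haem-degrading enzyme haem oxygenase, rose by 0.97 and Txnrd1, thioredoxin reductase, by 0.88. Hmox1 stood at 8.85, 8.84 and 8.96 in control, 9.36, 9.38 and 9.41 at 1 h and 9.90, 9.81 and 9.84 after washout, so that its 3 groups did not overlap. The glutathione peroxidases Gpx1 and Gpx4 fell by 0.44 and 0.26, and Nfe2l2, which encodes NRF2 itself, fell by 0.20. These were not the largest falls, since the lowest difference in the list was -0.86.

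The integrated stress response and amino acid supply list had 19 higher and 8 lower of 44 measured (median 0.09). The aminoacyl-tRNA synthetase genes Iars, Cars, Nars, Sars, Tars and Gars rose by 0.32, 0.34, 0.28, 0.27, 0.24 and 0.20. Cth, which makes cysteine from cystathionine, rose by 0.68, and Trib3, a pseudokinase that the pathway induces, by 0.66. Among the lower members, Ddit4, an mTORC1 inhibitor gene, went from 10.37, 10.30 and 10.32 to 9.18, 9.12 and 9.25. Ddit3, which encodes the transcription factor CHOP, was 0.59 above control at 1 h and fell by 0.42 after washout. Ppp1r15a, a phosphatase subunit that restores translation, was 1.04 above at 1 h and fell by 0.63. Among endoplasmic reticulum chaperones and degradation genes 5 of 27 rose and 7 fell; Ern1, which encodes the sensor IRE1 alpha, rose by 1.05 and the chaperone cofactor gene Dnajc3 fell by 0.37.

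Genes of secreted proteases were among the highest. Of 34 measured matrix proteases and inhibitors 14 rose and 5 fell (median 0.14). Plat, tissue plasminogen activator, stood at 8.32, 8.35 and 8.35 in control, 8.96, 8.92 and 8.96 at 1 h and 10.64, 10.55 and 10.68 after washout, a 4.88-fold rise over control. Mmp10, stromelysin 2, went from 6.00, 5.58 and 5.78 to 7.92, 7.89 and 7.93, a 4.38-fold rise, and Mmp13, a collagenase, rose 2.61-fold. The urokinase and urokinase receptor genes Plau and Plaur rose by 0.34 and 0.44, and the inhibitor gene Timp1 by 0.46. Mmp2 and Mmp14, the gelatinase and its membrane-bound activator, fell by 0.23 and 0.44. On the side of blood clotting, F3, tissue factor, went from 10.38, 10.42 and 10.49 to 9.28, 9.26 and 9.14, a fall of 1.20 ± 0.051 (SE). Procr, the endothelial protein C receptor gene, rose 2.63-fold, and Thbd, thrombomodulin, by 0.48. Ptges, the prostaglandin E synthase gene, rose by 0.83, in a wound-response list of 22 measured genes with 9 higher and 5 lower.

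**Figure D3:**
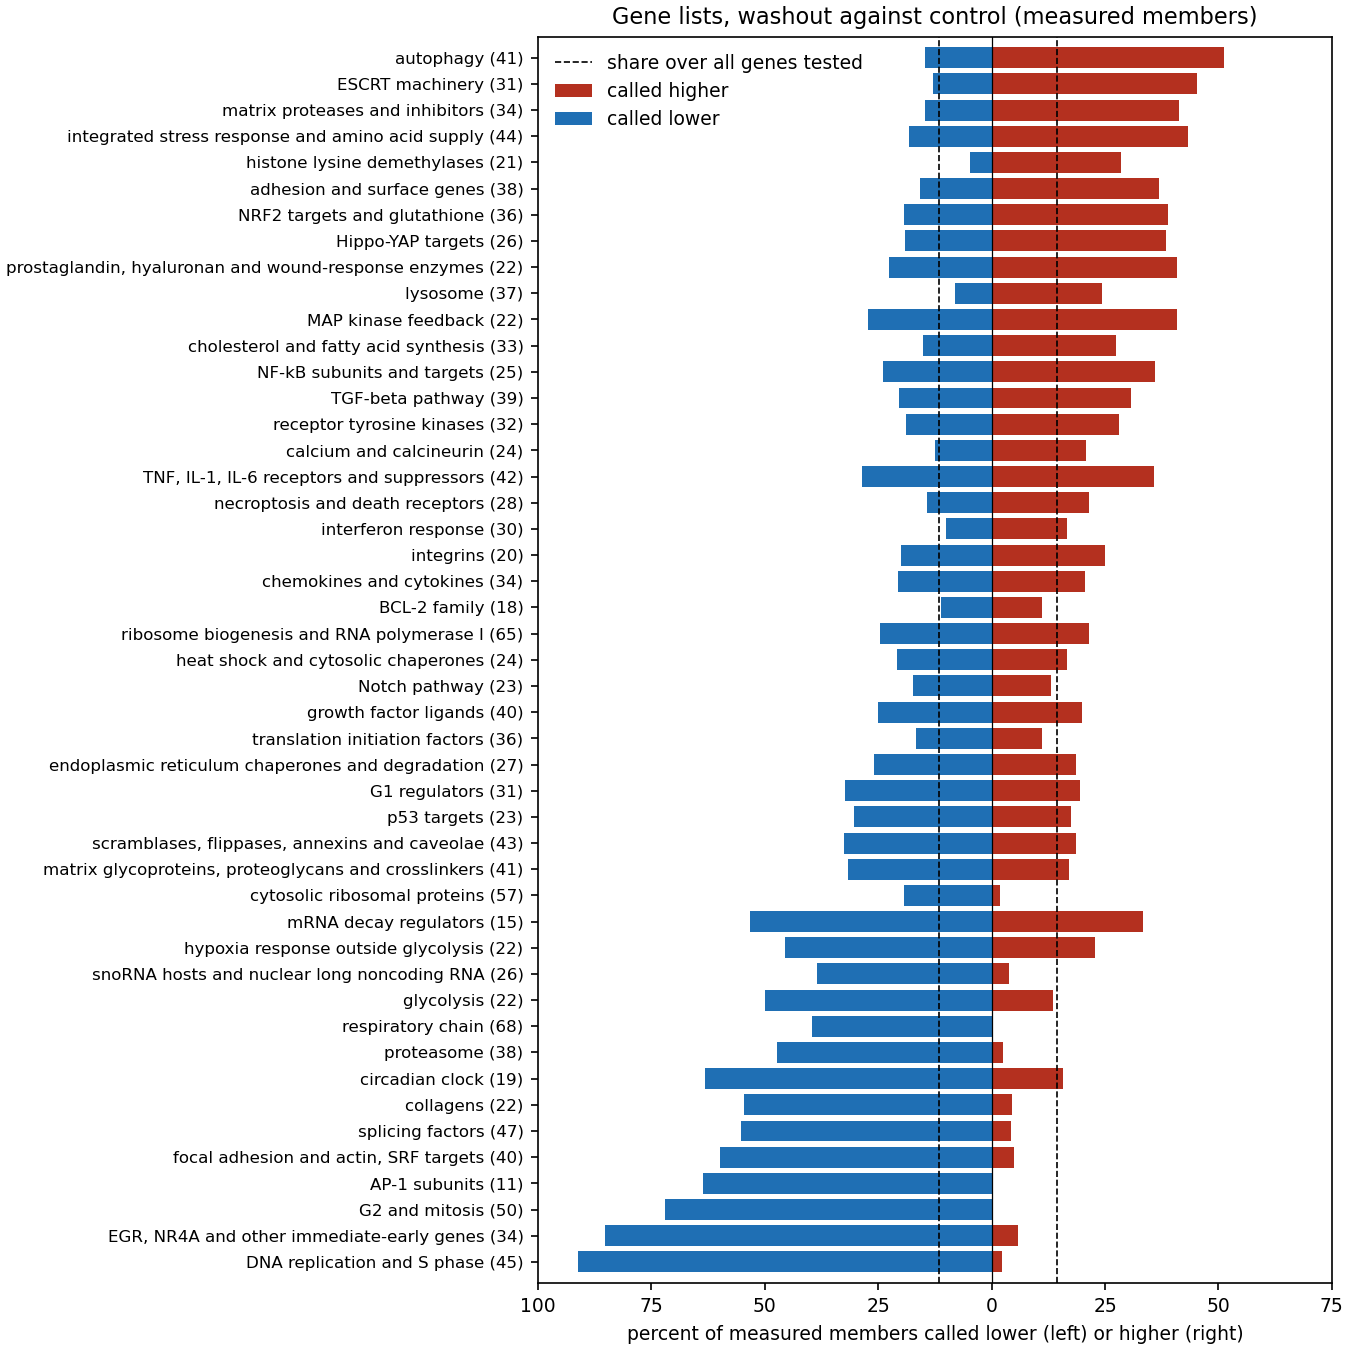
For 47 gene lists, with the number of measured members in brackets, the percent of members called higher (red, right) and lower (blue, left) after washout against control. Dashed lines mark the 14.5% and 11.7% of all 22180 genes. These include dim genes, which had few calls and of which most lists hold few. The lists were chosen with earlier results of these data known. DNA replication and S phase (41 of 45 lower) and immediate-early genes (29 of 34 lower) stand at the bottom, and autophagy (21 of 41 higher) and ESCRT machinery (14 of 31 higher) at the top.

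Of 34 measured chemokines and cytokines 7 rose and 7 fell (20.6% each; median 0.00), where 5 had been higher and 0 lower at 1 h against the same control arrays. Il33, an alarmin of the interleukin 1 family, went from 6.17, 5.91 and 6.13 in control to 7.67, 7.83 and 7.78 after washout, a 3.22-fold rise, with 5.99, 5.98 and 6.17 at 1 h. Il34, a ligand of the macrophage CSF1 receptor, rose 2.09-fold, while Csf1, the other ligand of that receptor, went from 11.01, 10.97 and 10.89 to 10.18, 10.17 and 10.20. Ccl7, a monocyte chemokine, fell 2.94-fold, from 9.53, 9.54 and 9.58 to 7.99, 8.05 and 7.95. Ccl9 and Cxcl5, which draw myeloid cells, fell by 1.20 and 1.03, and Ccl2, another monocyte chemokine, by 0.65. Cxcl2, a neutrophil chemokine that was 0.68 above control at 1 h, was still called higher, by 0.34.

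The NF-kB list had 9 higher and 6 lower of 25 measured (median 0.06). Nfkbia, which encodes the inhibitor that NF-kB itself induces, stood at 9.87, 9.92 and 9.92 in control, 10.89, 10.96 and 10.94 at 1 h and 8.80, 8.85 and 8.84 after washout. It was above control at 1 h and below it after washout, with no overlap among the groups. Tnfaip3, a deubiquitinase gene induced by NF-kB, was 2.10 above control at 1 h and fell by 0.28 after washout. Nfkb2, a slower member that encodes the p100 precursor, rose by 0.54, and Birc2 and Birc3, ubiquitin ligases of tumour necrosis factor signalling, by 0.41 and 0.33. The interferon list had 5 higher and 3 lower of 30; Stat2, a transducer of type I interferon signals, went from 6.56, 6.74 and 6.70 to 7.87, 7.94 and 7.82, a 2.32-fold rise. Of 42 measured cytokine receptor and signalling suppressor genes 15 rose and 12 fell. Lifr, the leukaemia inhibitory factor receptor gene, rose 2.73-fold, Tlr3, a sensor of double-stranded RNA, 2.17-fold and the decoy receptor gene Tnfrsf22 2.43-fold. Il6ra, the interleukin 6 receptor gene, fell by 0.84 and Socs3, which encodes a feedback inhibitor of cytokine signalling, by 0.83.

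Immediate-early genes, whose transcription starts within minutes of a signal without new protein, were among the lowest genes. Of 11 measured subunits of the transcription factor AP-1, 0 rose and 7 fell (median -0.39), where 6 had been higher and 1 lower at 1 h. Fos stood at 6.97, 6.95 and 6.98 in control, 8.93, 8.94 and 8.88 at 1 h and 4.94, 4.66 and 4.57 after washout. It fell 4.73-fold below control, by 2.24 ± 0.082 (SE; limma adjusted p = 1.56e-07). Fosb, its close relative, went from 10.91, 10.92 and 10.90 to 8.53, 8.40 and 8.59. Junb fell 2.33-fold, Jund by 0.77, Jun by 0.70, and Fosl2 and Mafk by 0.39 each. The 4 not called, Atf3, Batf3, Maff and Mafg, stood at 0.06, -0.01, 0.11 and 0.08.

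The list of 34 other immediate-early genes had 2 higher and 29 lower (median -0.74), against 18 higher and 9 lower at 1 h. Egr1, a zinc finger activator, stood at 10.79 on all 3 control arrays, 11.72, 11.73 and 11.75 at 1 h and 8.24, 8.15 and 8.33 after washout, a 5.86-fold fall below control. Egr2 fell 3.05-fold, with values of 8.36 on each control array and 6.83, 6.70 and 6.73 after washout. The deposited control values of Egr2, Junb and Nr4a1 were identical on the 3 arrays to every digit, so that their control SD of 0 understates the spread. Klf10, a Krüppel-like factor gene, fell by 1.93, Csrnp1, a nuclear protein gene of this class, by 1.70, and Nr4a1, a nuclear receptor gene, by 1.5. The helix-loop-helix inhibitors Id2, Id1 and Id3, which bone morphogenetic proteins induce, were already lower at 1 h, at -0.79, -0.56 and -0.50 relative to control, and fell by 1.5, 0.89 and 0.60 after washout. The 2 that rose were Ccn1, a matricellular protein gene, by 0.31 and Myc by 0.22.

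Regulators of mRNA decay followed the same outline in part, with 5 higher and 8 lower of 15 measured. Zfp36, which encodes tristetraprolin, a protein that binds AU-rich elements and hastens the decay of cytokine and immediate-early transcripts, fell most of all genes. Its levels were 10.91, 10.95 and 10.91 in control, 11.87, 12.06 and 11.95 at 1 h and 8.40, 8.37 and 8.15 after washout. The fall below control was 6.13-fold, or 2.62 ± 0.073 (log2, SE; limma adjusted p = 2.93e-08). Btg2, which recruits deadenylases, was 1.46 above control at 1 h and fell by 1.31 after washout. Zc3h12a, the endonuclease regnase-1, fell by 1.03 and the paralogue Zfp36l2 by 0.92, and neither had been above control at 1 h (-0.28 and -0.21). The deadenylase subunit genes Cnot6, Cnot7 and Cnot8 and the Pan2 gene rose by 0.28, 0.25, 0.24 and 0.35.

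**Figure D4:**
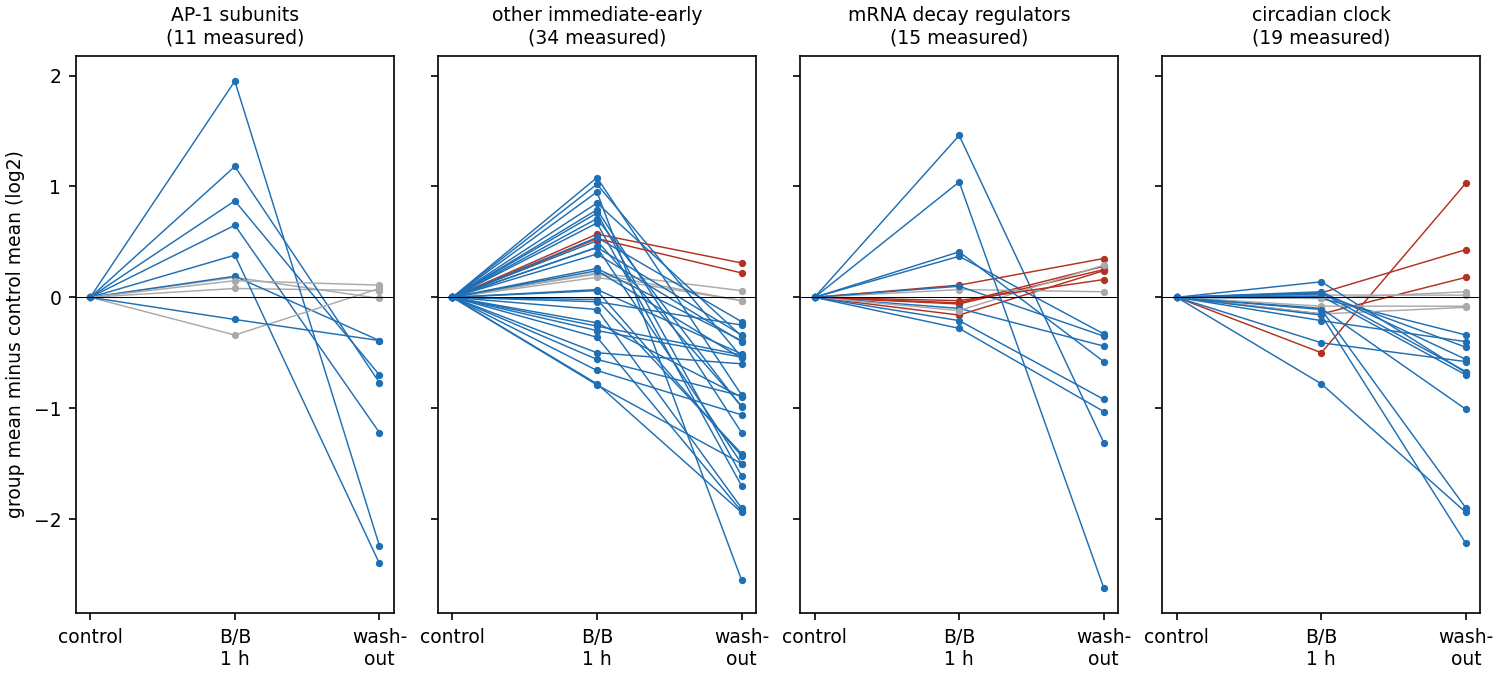
Each line is 1 measured member of the list named above the panel, and the vertical axis is the group mean minus the control mean (log2), 0 at control by construction. Line colours mark the call for washout against control (red higher, blue lower, grey not called). In the AP-1 and other immediate-early panels many lines rise at B/B 1 h and end below control after washout. Of the 15 mRNA decay genes 4 were called higher and 1 lower at 1 h, and 5 ended higher and 8 lower. Most clock genes that end low were near 0 at 1 h.

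Feedback inhibitors of MAP kinase signalling did not share that outline as a list, with 9 higher and 6 lower of 22 (median 0.02). Dusp4 and Dusp6, phosphatases of ERK, rose by 0.86 and 0.36, Spred2 by 0.46 and the ERK-induced factor genes Etv1 and Etv5 by 0.53 and 0.52. Dusp1, a nuclear phosphatase gene that was 0.96 above control at 1 h, fell by 0.31.

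Serum response factor, a regulator of immediate-early and contractile genes, binds the CArG box, which is CC, 6 bases of A or T, and GG. The windows from 250 bases before to 50 bases after each annotated start (RefSeq, GRCm38.p6) were searched for it, on both strands, in the 16918 tested genes that the table holds. It was found in 1.67% of all these genes, in 4 of 59 genes at least 2-fold lower (6.78%) and in 12 of 314 at least 1.5-fold lower (3.82%). Of those at least 2-fold higher 0.962% had it. Over all genes called lower the share was 1.79% (37 of 2068), near that of all genes, and over all called higher 1.31%. Among genes brighter than the median gene it was 1.64%. The windows of 3 genes at least 2-fold lower and of Cnn2, at the 2-fold limit, are printed because these genes stand for the 2 classes, immediate-early (Zfp36, Egr2) and contractile (Myl9, Cnn2). Each is 5′ to 3′ on the gene's strand, with the CArG box in capitals. They lie at chr7:28379179-28379478 (minus strand, Zfp36), chr10:67537619-67537918 (plus, 1 of several annotated starts of Egr2), chr2:156775214-156775513 (plus, Myl9) and chr10:79988350-79988649 (plus, Cnn2).
Zfp36: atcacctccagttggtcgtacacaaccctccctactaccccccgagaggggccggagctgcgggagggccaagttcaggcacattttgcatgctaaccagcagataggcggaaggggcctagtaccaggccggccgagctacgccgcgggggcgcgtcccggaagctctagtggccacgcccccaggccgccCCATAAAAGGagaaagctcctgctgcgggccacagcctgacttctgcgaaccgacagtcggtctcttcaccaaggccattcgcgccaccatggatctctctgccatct
Egr2: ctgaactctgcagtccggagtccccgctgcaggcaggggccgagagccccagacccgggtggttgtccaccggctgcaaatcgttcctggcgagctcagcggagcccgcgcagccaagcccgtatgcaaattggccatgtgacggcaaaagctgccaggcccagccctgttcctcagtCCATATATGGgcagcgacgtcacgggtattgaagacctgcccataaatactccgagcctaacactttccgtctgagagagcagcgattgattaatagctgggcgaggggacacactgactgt
Myl9: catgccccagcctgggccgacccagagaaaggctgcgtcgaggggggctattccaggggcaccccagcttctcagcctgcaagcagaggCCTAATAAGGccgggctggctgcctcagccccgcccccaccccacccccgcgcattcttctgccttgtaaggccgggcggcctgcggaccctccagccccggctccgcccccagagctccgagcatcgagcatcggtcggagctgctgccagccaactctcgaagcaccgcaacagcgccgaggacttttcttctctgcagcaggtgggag
Cnn2: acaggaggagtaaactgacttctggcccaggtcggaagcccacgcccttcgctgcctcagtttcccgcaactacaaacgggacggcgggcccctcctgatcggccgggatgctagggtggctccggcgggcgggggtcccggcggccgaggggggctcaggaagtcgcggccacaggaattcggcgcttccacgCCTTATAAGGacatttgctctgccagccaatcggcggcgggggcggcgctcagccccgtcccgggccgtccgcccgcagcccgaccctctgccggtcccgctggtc
The box starts 58 bases before the start of Zfp36, 72 before that of Egr2, 161 before that of Myl9 and 56 before that of Cnn2. The fourth gene at least 2-fold lower with a box was Ppbp, a platelet chemokine gene, which fell 2.38-fold. The other genes at least 1.5-fold lower with a box include Acta1, Fhl2 and Myl6, of muscle actin, a focal adhesion protein and a myosin light chain. These matches describe letters in a window and were not tested as binding sites. The AP-1 motif TGANTCA, which reads the same on both strands, was in 8.39% of all genes, 14.4% of those at least 2-fold higher and 15.3% of those at least 2-fold lower. It was in 7.88% and 7.64% of those at least 1.5-fold higher and lower, and in 6.67% and 5.85% of all called higher and lower. The shares of these wider groups were below that of all genes. The antioxidant response element core TGACNNNGC, searched on both strands, was in 14.9% of all genes, 20.2% and 22.0% past 2-fold higher and lower, 18.0% and 18.2% past 1.5-fold and 16.8% of those called in either direction. Among genes brighter than the median gene, the AP-1 motif was in 5.97% and the antioxidant core in 16.7%.

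Hes1 and several circadian clock genes also lay among the lowest. Hes1, a repressor that Notch induces, stood at 9.14, 9.13 and 9.21 in control, 8.36, 8.39 and 8.39 at 1 h and 6.97, 6.82 and 6.95 after washout, a 4.76-fold fall with 3 groups clear of each other. Jag1, which encodes a Notch ligand, went the other way, from 8.77, 8.67 and 8.68 to 10.18, 10.17 and 10.31, a 2.85-fold rise. The Notch list as a whole had 3 higher and 4 lower of 23 measured.

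Of 19 measured circadian clock genes 3 rose and 12 fell (median -0.45), where 0 had been higher and 3 lower at 1 h. Nr1d1, which encodes the repressor REV-ERB alpha, stood at 10.27, 10.40 and 10.38 in control and 8.14, 8.14 and 8.12 after washout, a 4.65-fold fall. Per1, a repressor of the clock's negative limb, fell 3.73-fold, Bhlhe40 3.84-fold and Dbp, an output factor, 2.01-fold. Arntl, which encodes the activator BMAL1 and is repressed by REV-ERB alpha, stood at 7.71, 7.56 and 7.77 in control, 7.03, 7.21 and 7.29 at 1 h and 8.67, 8.80 and 8.65 after washout. It was below control at 1 h and rose 2.04-fold after washout. The time of day at which each group was harvested is not given in the labels, and its part in these values cannot be told apart from the treatment.

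Genes of cell division had most members lower. Of 45 measured DNA replication and S phase genes 1 rose and 41 fell (median -0.37), and of 50 G2 and mitosis genes 0 rose and 36 fell (median -0.28). At 1 h the same lists had 0 and 1 called, and 0 and 0. Tk1, thymidine kinase, went from 9.90, 9.92 and 9.90 in control, by way of 9.86, 9.89 and 9.99 at 1 h, to 8.59, 8.59 and 8.55, a 2.51-fold fall. The helicase genes Mcm2, Mcm3 and Mcm6 fell by 0.48, 0.52 and 0.44, the primase genes Prim1 and Prim2 by 0.71 and 0.72, and Uhrf1, which carries DNA methylation through replication, by 0.81. Among mitotic genes, Ccnb2, cyclin B2, fell by 0.74, Birc5, survivin, by 0.72, and Mki67, the Ki-67 antigen, by 0.46. Gins3, a helicase cofactor gene, was the 1 called higher, by 0.27.

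Regulators of G1 were mixed, with 6 higher and 10 lower of 31 (median -0.05). Ccne1, cyclin E1, and its kinase Cdk2 fell by 0.70 and 0.60, and the activator gene E2f1 by 0.33. Ccnd1, cyclin D1, rose by 0.15, with control at 11.39, 11.35 and 11.36 and washout at 11.56, 11.50 and 11.49. Cdkn1a, which encodes the inhibitor p21, was not called, at 11.72, 11.74 and 11.80 against 11.70, 11.65 and 11.66. Of 23 measured p53 targets 4 rose and 7 fell.

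**Figure D5:**
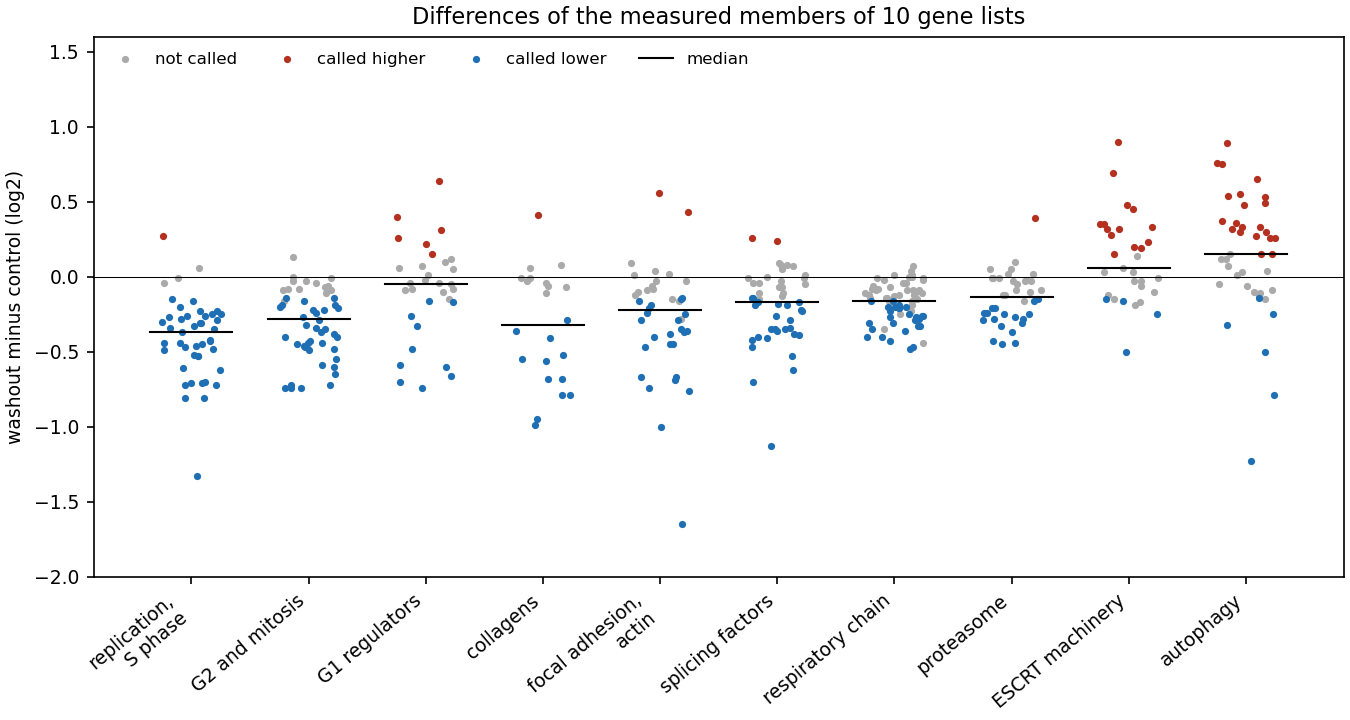
Washout mean minus control mean (log2) of every measured member of 10 lists, spread sideways only to be visible; red and blue points were called higher and lower, grey points were not, and black bars are list medians. Nearly all S phase genes lie below 0, with Tk1 lowest at -1.33, and the ESCRT and autophagy lists have most of their called members above 0.

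Matrix and contractile genes had more members lower than higher. Of 22 measured collagen genes 1 rose and 12 fell (median -0.33). Col1a2 and Col1a1, the chains of type I collagen, went from 10.71, 10.71 and 10.60 to 9.69, 9.68 and 9.68 and from 10.48, 10.44 and 10.30 to 9.56, 9.61 and 9.66. These are falls of 1.98-fold and 1.73-fold. Col5a2 and Col3a1 fell by 0.95 and 0.56, and the 1 that rose was Col6a3, by 0.41. The crosslinking enzyme genes Loxl3, Loxl1 and Lox fell by 1.17, 0.87 and 0.50, and Thbs1, thrombospondin 1, by 1.01, in a list of matrix glycoproteins and crosslinkers with 7 higher and 13 lower of 41. Tnc and Vcan, tenascin C and versican, rose by 0.35 and 0.30.

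Of 40 measured focal adhesion and actin genes, many of them targets of serum response factor, 2 rose and 24 fell (median -0.23). Myl9, a myosin regulatory light chain gene, went from 9.88, 9.79 and 9.77 in control to 9.49, 9.62 and 9.58 at 1 h and 8.09, 8.18 and 8.23 after washout, a 3.13-fold fall below control. Cnn2, calponin 2, fell 2.00-fold, and Acta2, smooth muscle actin, 1.59-fold, with 12.38, 12.36 and 12.39 against 11.66, 11.74 and 11.74. Tpm1 and Tpm2, tropomyosins, each fell by 0.45, and Vcl and Zyx, vinculin and zyxin of focal adhesions, by 0.40 and 0.37. Actb was not called, at 10.45, 10.47 and 10.47 against 10.42, 10.21 and 10.28. Mrtfb, which encodes a cofactor of serum response factor, rose by 0.43 while Srf itself fell by 0.25. Hippo-YAP targets were mixed, with 10 higher and 5 lower of 26.

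Of the 17 fibroblast markers 2 rose and 9 fell. Pdgfrb and Pdgfra, the receptors for platelet-derived growth factor, moved apart. Pdgfrb went from 9.49, 9.45 and 9.41 to 8.10, 8.10 and 8.08, a 2.56-fold fall, and Pdgfra from 9.25, 9.36 and 9.39 to 10.01, 10.03 and 10.01, a 1.61-fold rise. In neither did the groups overlap. Among 32 measured receptor tyrosine kinases 9 rose and 6 fell, and Fgfr1, a fibroblast growth factor receptor gene, rose 1.96-fold, from 8.70, 8.86 and 8.83 to 9.76, 9.80 and 9.73. Of 40 growth factor ligand genes 8 rose and 10 fell. Fgf2 rose by 0.86, and Angptl4, a secreted inhibitor of lipoprotein lipase, by 1.55. Vegfd, a lymphatic growth factor gene, fell by 1.66 and Nrg1, neuregulin 1, by 1.05. In the TGF-beta list 12 rose and 8 fell of 39, 20 in all, against 13 without washout replicate 2.

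Of 31 measured ESCRT genes 14 rose and 4 fell (45.2% and 12.9%, median 0.06), against 14.5% and 11.7% of all genes. At 1 h 0 were higher and 1 lower. None of the 31 lay in the lowest 30% by level. In the third and second brightest of the 10 level groups 55.8% and 60.1% of genes were called, against 58.1% of this list. Chmp1b, an ESCRT-III subunit gene, stood at 7.83, 7.83 and 7.91 in control, 7.60, 7.67 and 7.78 at 1 h and 8.73, 8.77 and 8.77 after washout, a 1.87-fold rise. Hgs, which starts ESCRT assembly on endosomes, rose 1.61-fold, from 9.41, 9.37 and 9.36 to 10.06, 10.02 and 10.13. Vps4b, the ATPase that takes ESCRT-III apart, rose by 0.45, Chmp5 by 0.33, and Chmp4b, the main filament subunit, by 0.19. The called rises other than those of Chmp1b and Hgs were under 1.5-fold. The ESCRT-I gene Vps28 fell by 0.50 and the ESCRT-II genes Vps36 and Snf8 by 0.16 and 0.15.

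Genes that set or read the lipid faces of the membrane were mixed, with 8 higher and 14 lower of 43 scramblases, flippases, annexins and caveola genes. Ano6, a calcium-activated scramblase gene, rose by 0.59 and Xkr8, a caspase-activated one, by 0.43. Of the caveola genes, Cavin2 fell by 0.97, Cav2 by 0.79 and Cav1 by 0.41. Of 28 measured necroptosis and death receptor genes 6 rose and 4 fell (21.4% and 14.3%, against 14.5% and 11.7% of all genes). Mlkl fell by 0.49 ± 0.053 (SE), from 9.66, 9.52 and 9.67 to 9.07, 9.12 and 9.17, and whether this probe set also reads the human fusion transcript is not known from the files. Ripk3, the kinase that activates MLKL, was not called, at 4.70, 4.46 and 4.27 against 4.39, 4.07 and 4.37. Cyld, a deubiquitinase gene that favours necroptosis, fell by 0.99. Of 18 BCL-2 family genes 2 rose and 2 fell (11.1% each), against 14.5% and 11.7% of all genes. The 2 calls of rises were each lost under at least 1 alternative analysis.

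Of 41 measured autophagy genes 21 rose and 6 fell (51.2% and 14.6%, median 0.15), and none lay in the lowest 30% by level. Among all genes above that limit 20.1% were called higher and 16.2% lower. The differences in the list ranged from -1.23 to 0.89. Calcoco1, an autophagy receptor gene, went from 7.22, 7.26 and 7.27 to 8.13, 8.14 and 8.15, a 1.85-fold rise. Sqstm1, the p62 receptor gene, rose by 0.54, Atg13 and Ulk1 of the initiating kinase complex by 0.49 and 0.36, and Map1lc3b, which encodes the LC3B tag of autophagosomes, by 0.33. Of 37 lysosome genes 9 rose and 3 fell (24.3% and 8.1%), and the cholesterol exporter gene Npc1 rose by 0.76. Proteasome genes were lower, with 1 higher and 18 lower of 38 (2.6% and 47.4%, median -0.14), and the largest fall was 0.45, in Psmb6. Respiratory chain genes had 0 higher and 27 lower of 68 (0.0% and 39.7%, median -0.16), from 0.16 to 0.48 in size.

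Of 22 measured glycolysis genes 3 rose and 11 fell (median -0.14). The 3 phosphofructokinase genes parted. Pfkp, the platelet form, went from 7.25, 7.24 and 7.35 to 9.14, 9.10 and 9.27, a 3.71-fold rise, while Pfkl, the liver form, fell by 0.84 and Pfkm, the muscle form, by 0.69. Eno2, an enolase gene, fell by 1.08 and Hk2, hexokinase 2, by 0.56. Gapdh was not called, at 12.49, 12.49 and 12.50 against 12.40, 12.38 and 12.40. Hypoxia response genes outside glycolysis had 5 higher and 10 lower of 22. Bnip3, a mitophagy receptor gene, went from 8.27, 8.15 and 8.30 to 6.93, 7.11 and 7.0, a 2.34-fold fall, and Adm, adrenomedullin, fell by 1.08. Hif1a fell by 0.24. Cholesterol and fatty acid synthesis genes had 9 higher and 5 lower of 33, all under 1.5-fold in size.

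Small nucleolar RNAs guide the chemical modification of ribosomal RNA. Of 80 measured probe sets of this kind, 0 were called higher and 57 lower (71.2%, median -0.50), against 14.5% and 11.7% of all genes. At 1 h 5 were higher and 16 lower. Their median level was 7.06. In the level group from 6.23 to 7.42, 680 of 2218 genes were called higher and 403 lower, together 48.8%. The H/ACA type, which guides pseudouridylation, had 21 of 26 lower and the C/D type, which guides methylation, 35 of 46. Snora75 stood at 7.72, 7.72 and 7.95 in control, 8.12, 8.19 and 8.25 at 1 h and 6.54, 6.28 and 6.62 after washout, a 2.49-fold fall. Snord17 went from 9.24, 8.95 and 9.35 to 8.23, 8.20 and 8.31. Most small nucleolar RNAs lie in introns of host genes, and a probe set can read the host's unspliced RNA as well as the mature form. Of 26 measured host and nuclear long noncoding RNAs 1 rose and 10 fell, and Neat1, the scaffold of paraspeckles, fell 2.06-fold. Splicing factor genes had 2 higher and 26 lower of 47 (median -0.17); Hnrnpa3 fell 2.19-fold and U2af2, which binds the polypyrimidine tract, by 0.70. Of 57 measured genes for cytosolic ribosomal proteins 1 rose and 11 fell (1.8% and 19.3%, against 14.5% and 11.7% of all genes). The 12 calls ranged from 5 to 17 over the alternative analyses.

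Among 478 microRNA genes 15 were called higher and 34 lower (3.1% and 7.1%), below the 14.5% and 11.7% of all genes. MicroRNA genes are dim, however, with a median level of 3.47. In the level group from 3.13 to 3.58 only 3.0% of genes were called in either direction, so the all-gene shares are not a like-level measure. Mir27a and Mir23a, neighbours on chromosome 8, were above control at 1 h and below it after washout. Mir27a stood at 8.05, 8.07 and 8.24 in control, 9.39, 9.07 and 9.60 at 1 h and 6.90, 6.86 and 7.12 after washout. Mir23a stood at 6.91, 6.89 and 6.92, then 8.45, 7.95 and 8.51, then 5.22, 5.95 and 6.20. In both the 3 groups were clear of each other, and the falls below control were 2.24-fold and 2.17-fold. The mature arms of the 2 hairpins are given from RefSeq (GRCm38.p6) because these were the microRNA genes with the lowest differences along with Mir199b, and their seeds, bases 2 to 8, are in capitals.
miR-27a-5p: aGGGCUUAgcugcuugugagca
miR-27a-3p: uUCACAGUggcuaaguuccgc
miR-23a-5p: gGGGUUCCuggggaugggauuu
miR-23a-3p: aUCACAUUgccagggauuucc
They lie on the plus strand at chr8:84208685-84208706, chr8:84208727-84208747, chr8:84208527-84208548 and chr8:84208563-84208583. No seed is shared among the 4 arms. The array reads the hairpin gene as 1 probe set, so these values do not tell the arms apart or mature from primary transcript.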

How the data were processed

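Total RNA of 9 samples was hybridised to one-colour Affymetrix arrays, 3 per group by the treatment labels. The deposited log2 values are probe set summaries that the authors made; Partek 6.6 is named in the submitters' processing notes, and the methods of summary and normalization are not given in the sources used here. Base 2 was inferred from the values. Of 41345 probe sets 23521 carry 1 gene symbol in the platform annotation; 1814 with several and 16010 with none were fitted apart. The 22180 genes were fitted in R 4.3.3 with limma 3.58.1, as 1 linear model of 3 group means over the 9 arrays (lmFit, eBayes), with Benjamini-Hochberg adjustment over all genes and a threshold of 0.05. The number of arrays limits the precision; the median standard error of a difference was 0.0636. No detection calls were used. The comparisons of washout and of B/B 1 h with control share the control arrays, so their values are given side by side only. The code was tested on simulated data.

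Members, the 53 gene lists and the motifs were chosen with earlier results of these data known. Genes to name were drawn from the 25 highest and 25 lowest called genes without overlap of washout and control arrays, predicted names left out; up to 5 called members of each list with the largest difference and up to 2 that went against it; all members of lists of up to 12; Mlkl and Ripk3; the 4 highest and 4 lowest called long noncoding, microRNA and snoRNA genes; and up to 2 bright uncalled members of each list. Not every gene so drawn is printed, and further list members are named as examples, chosen after their values were seen. Of the genes the rule draws, 2 are not reported here. Promoter windows and microRNA sequences came from RefSeq tables of GRCm38.p6. Alternatives were quantile normalization, centred array medians, leaving out the lowest 30% of genes by level, averaging probe sets, taking every probe set, a variance trend, a robust prior, array weights, a fit of the 2 groups only, a threshold of 0.01 and leaving out each array in turn.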

Additional observations from a re-analysis of the deposited data

Results flagged for a closer look

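A set of named genes lay on opposite sides of control in the 2 treated groups: called higher at 1 h and lower after washout, or the reverse, with a size of at least 1.5-fold after washout, and with a difference between the 2 treated groups past limma's threshold. The comparisons with control share the control arrays, so the direct difference, washout minus B/B 1 h on the log2 scale, is given for each. Among immediate-early genes it was -4.19 for Fos, -3.50 for Egr1, -2.78 for Fosb, -2.37 for Csrnp1, -2.37 for Egr2, -1.95 for Nr4a1, -1.95 for Jund, -1.86 for Junb and -1.56 for Jun. The mRNA decay regulators Zfp36 and Btg2 stood at -3.65 and -2.78, and Ppp1r15a at -1.67. In NF-kB and chemokine genes it was -2.10 for Nfkbia, -1.77 for Ccl7 and -1.25 for Vcam1, an adhesion molecule for leukocytes. The microRNA genes Mir23a and Mir27a stood at -2.52 and -2.39. Of the named genes, those below control at 1 h and above it after washout include Slc7a11, with a difference of 3.39, Cgref1, a growth regulator gene with calcium-binding motifs, with 2.24, Arntl with 1.53, Fgf2 with 1.19 and Tnfaip2 with 0.94.

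Probe sets outside the gene comparison also differed between washout and control. Of 1814 with several gene symbols 22.9% were called, 200 higher and 216 lower, and of 16010 with no symbol 4.73%, 264 higher and 493 lower.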

How the results depend on the processing

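The count of 5814 called genes stood at 5013 to 6236 over the alternatives at a threshold of 0.05, and at 4184 with adjusted p under 0.01. It was 5013 to 5902 with an array left out. The count of at least 2-fold changes, 226, stood at 216 to 236, and at 225 to 230 with an array left out. The share of called genes that were higher, 55.2%, was 50.3% with quantile normalization and 51.2% with array medians centred. Of 314 named genes that were called, 288 kept the call and the direction under all 19 alternatives, 25 were not past the threshold under at least 1, of which 7 only at adjusted p under 0.01, and 1, Zfas1, turned direction while past it. With the probe sets of a gene averaged, the sign turned in Ndrg1 (-0.04), Gabarap (-0.25), Rpl3 (-0.06), Npm1 (-0.15) and Zfas1 (-0.23), and Trav9d-3, a T cell receptor segment with 5 probe sets, went from -1.66 to -0.41. Translation initiation factors, with 10 of 36 called (27.8%, near the 26.2% of all genes), stood at 4 to 15. No paired analysis was possible because the labels give no replicate numbers that the groups share. The dimmest genes had few calls, and a difference there is not excluded by its absence from the counts.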

Other observations

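Zinc finger protein genes formed the largest block of small rises. Among 15526 genes above the lowest 30% by level, 20.1% were called higher and 16.2% lower. Of the 305 whose names begin with Zfp, mostly DNA-binding repressor-type factors, 168 rose and 21 fell (55.1% and 6.9%; median 0.28), where 3 were higher and 20 lower at 1 h against the same control arrays. Zfp760 rose most, by 2.01. Zfp40 went from 4.91, 4.75 and 5.02 in control to 5.96, 5.76 and 6.28 after washout. The lowest were Zfp36, at -2.62, and Zfp948, which went from 9.69, 9.85 and 9.82 to 8.59, 8.67 and 8.56. Zfp36 is here by name only, since it encodes the RNA-binding decay regulator described above. The stem is a match of names and not 1 gene family. Many of its DNA-binding members share sequence, and reading of 1 transcript by several probe sets was not tested. Of 37 genes with names in Zbtb, another zinc finger class, 16 rose and 2 fell, and of 32 in Klhl, adaptors of a ubiquitin ligase, 13 rose and 0 fell. Ubiquitin ligase genes with names in Rnf had 25 higher and 8 lower of 69, and F-box genes with names in Fbxo 14 and 3 of 33. Names of nuclear receptors in Nr went the other way, with 2 higher and 10 lower of 20. These name stems were looked at among 65 stems with at least 20 genes, and the ones given were chosen after their values were seen.

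In 351 genes the 3 control arrays held the same deposited value to every digit, and in 347 genes the 3 washout arrays did. Of the 689 genes with such a tie in either group 23 were called, 3.34%, Egr2, Junb and Nr4a1 among them. The cause of these ties was not tested.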
